A study of Mus musculus with 8 samples.

Results

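The genes examined were 44 genes of mitosis and the G2/M transition, among them mitotic cyclins, kinases, kinetochore proteins and spindle proteins. They were found by gene symbol in a deposited table of 56691 genes. Each of the 44 symbols occurred once, and all 44 passed the filter on low counts, which kept 15870 genes. RNA sequencing had been done on Kupffer cells, macrophages that live in the liver sinusoids, sorted as live CD45+ Tim-4+ cells from livers with metastases of B16F10, a pigmented mouse melanoma line. The 4 WT and 4 VSIG4 KO libraries came from mice of either genotype 7 days after injection of B16F10 cells, so every library, WT included, came from a tumour-bearing liver. The sources used here do not give animal age, the knockout allele or whether a library was 1 animal or a pool. The labels do not say that replicates came from separate animals, so a p-value here refers to the variation among these libraries, which may be technical.

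Mitosis genes are transcribed mainly in dividing cells, late in the cell cycle. Their products condense chromosomes, attach them to the spindle, delay anaphase until attachment is complete, and divide the cell. Macrophages of the adult liver renew themselves at a low rate, whereas B16F10 cells divide quickly. Many of these genes share promoter elements, namely a CCAAT box bound by NF-Y and the cell cycle homology region (CHR), through which the DREAM and B-Myb complexes act. Pmel and Dct, against which each gene was compared, encode a melanosome matrix protein and a melanin-synthesis enzyme of pigment cells.

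Vsig4, the deleted gene, a complement receptor of macrophages, had 40604, 46735, 22498 and 25498 counts in libraries WT 1 to 4, against 9, 6, 2 and 4 counts in libraries KO 1 to 4. Libraries held 15264043 to 19513844 counts. Clec4f, a Kupffer cell lectin, stood at 11254, 10511, 6263 and 6921 CPM, counts scaled by library total and TMM factor, in libraries WT 1 to 4 and at 7270, 6688, 2362 and 5184 CPM in libraries KO 1 to 4, so the labelled cell type was abundant everywhere, least so in KO 3. Pmel stood at 85.98, 72.5, 965 and 847 CPM in libraries WT 1 to 4 and at 449, 623, 2274 and 1184 CPM in libraries KO 1 to 4. Every library therefore held melanoma RNA, WT 1 and WT 2 the least and KO 3 the most. Dct kept step with Pmel, at 194 to 218 Dct counts per 100 Pmel counts. Because the libraries are bulk RNA, fewer cells of a type and less RNA per cell cannot be told apart.

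Promoter windows of 6 members are shown because they hold the extremes of the comparison with Pmel: Ccnb1 and Plk1 among the steepest, Cdk1 and Ccnb2 as textbook CHR genes, and Kif23 and Pttg1, the only members that did not rise. Each window covers 250 bases before to 50 bases after the start site and is written 5′ to 3′ on the gene's strand, from RefSeq on GRCm38.p6. Capitals mark the CHR core TTTGAA, its variant TTTAAA and the CCAAT box, which reads ATTGG on the other strand. Both strands were searched, and no marked motifs overlap. The windows lie at chr13:100786437-100786736 for Ccnb1, chr7:122159185-122159484 for Plk1, chr10:69352863-69353162 for Cdk1, chr9:70421505-70421804 for Ccnb2, chr9:61946750-61947049 for Kif23 and chr11:43425932-43426231 for Pttg1. Plk1 lies on the plus strand and the others on the minus strand.
Ccnb1: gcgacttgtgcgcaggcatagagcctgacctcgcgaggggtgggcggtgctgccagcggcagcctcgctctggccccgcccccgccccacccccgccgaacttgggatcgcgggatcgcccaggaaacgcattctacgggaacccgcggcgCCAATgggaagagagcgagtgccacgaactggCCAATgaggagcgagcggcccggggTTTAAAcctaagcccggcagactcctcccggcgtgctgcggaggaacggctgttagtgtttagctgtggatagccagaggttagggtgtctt
Plk1: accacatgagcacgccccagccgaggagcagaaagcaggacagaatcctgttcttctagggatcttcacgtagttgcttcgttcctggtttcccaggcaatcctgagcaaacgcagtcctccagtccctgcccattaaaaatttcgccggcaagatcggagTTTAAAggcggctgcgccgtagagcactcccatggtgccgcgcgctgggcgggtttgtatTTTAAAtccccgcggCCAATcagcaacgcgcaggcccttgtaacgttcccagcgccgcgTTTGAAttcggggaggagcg
Cdk1: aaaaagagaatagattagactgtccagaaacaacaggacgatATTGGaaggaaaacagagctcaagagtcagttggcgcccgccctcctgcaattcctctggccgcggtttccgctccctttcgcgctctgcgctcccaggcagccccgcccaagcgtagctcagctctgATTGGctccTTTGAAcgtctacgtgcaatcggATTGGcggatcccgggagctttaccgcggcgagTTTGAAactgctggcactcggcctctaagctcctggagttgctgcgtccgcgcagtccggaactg
Ccnb2: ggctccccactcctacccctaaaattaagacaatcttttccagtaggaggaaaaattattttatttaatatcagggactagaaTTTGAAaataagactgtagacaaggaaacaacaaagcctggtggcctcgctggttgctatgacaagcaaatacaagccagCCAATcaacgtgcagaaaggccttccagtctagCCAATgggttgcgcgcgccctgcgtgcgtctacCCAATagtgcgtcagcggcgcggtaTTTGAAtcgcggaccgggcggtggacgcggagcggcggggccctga
Kif23: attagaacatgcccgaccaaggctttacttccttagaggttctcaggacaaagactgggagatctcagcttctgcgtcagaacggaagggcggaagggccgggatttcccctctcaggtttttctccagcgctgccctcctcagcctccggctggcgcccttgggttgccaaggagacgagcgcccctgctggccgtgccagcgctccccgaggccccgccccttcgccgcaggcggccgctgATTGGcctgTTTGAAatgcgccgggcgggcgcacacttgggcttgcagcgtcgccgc
Pttg1: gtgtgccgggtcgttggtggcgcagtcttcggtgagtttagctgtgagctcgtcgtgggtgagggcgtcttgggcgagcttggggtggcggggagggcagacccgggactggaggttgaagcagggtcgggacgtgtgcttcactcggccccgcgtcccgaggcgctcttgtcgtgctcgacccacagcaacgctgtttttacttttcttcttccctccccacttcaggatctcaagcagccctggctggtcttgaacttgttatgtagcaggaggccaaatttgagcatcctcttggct
Ccnb1 holds the variant TTTAAA and a pair of CCAAT boxes, whereas Cdk1 and Ccnb2 hold the TTTGAA core and CCAAT boxes. The flat gene Kif23 also holds TTTGAA and a CCAAT box, close to the start site, and the Pttg1 window holds none of these letters.

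RefSeq windows were matched for 38 of the 44 members, not for Aurkb, Foxm1, Spc24, Tpx2, Ccna2 and Kif20a. TTTGAA occurred in 27 of the 38 windows (71.1%), against 20.2% of 27025 genes with windows of the same length. A CCAAT box occurred in 29 (76.3%), against 41.1% of genes. Both occurred together in 24 (63.2%), against 7.97% of genes. TTTAAA was less common, in 10 windows (26.3%) against 14.9% of genes. Neither TTTGAA nor CCAAT was found in Birc5, Plk4, Mad2l1, Nuf2, Nusap1 and Pttg1, 6 windows (15.8%) against 47.7% of genes. These are letter matches in a fixed window, and their absence says nothing of a factor's binding.

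Levels were set per length by FPKM, fragments scaled by gene length and library total. Mean FPKM over the 8 libraries ran from 1.80 for Cenpk to 30.3 for Cks2, with a median of 7.72. Besides Cks2, the most abundant were Pttg1 at 26.1 FPKM, Top2a at 25.3 FPKM, Cks1b at 24.1 FPKM, Ccnb2 at 21.04 FPKM and Mki67 at 20.4 FPKM. The least abundant after Cenpk were Cenpf at 2.30 FPKM, Ttk at 2.32 FPKM, Espl1 at 2.66 FPKM and Plk4. All 44 genes together took 0.068% to 0.409% of a library's counts.

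For nearly all members the libraries were ordered largely as for Pmel, and the genotypes overlapped. KO 3 was the highest library for 42 of 44 members, and WT 1 and WT 2 were the lowest for 41. Between these ends, KO 1 lay below WT 3 and WT 4 for 43 members, all but Plk4. KO 4 lay above WT 3 and WT 4 for 40. From WT 1 to KO 3 the level was at least 5 times higher for 35 members, with a median ratio of 7.42 and a largest ratio of 12.3, for Ckap2. Pttg1 and Kif23 did not share this order. Pttg1 was highest in WT 1 and Kif23 in WT 2.

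**Figure D1:**
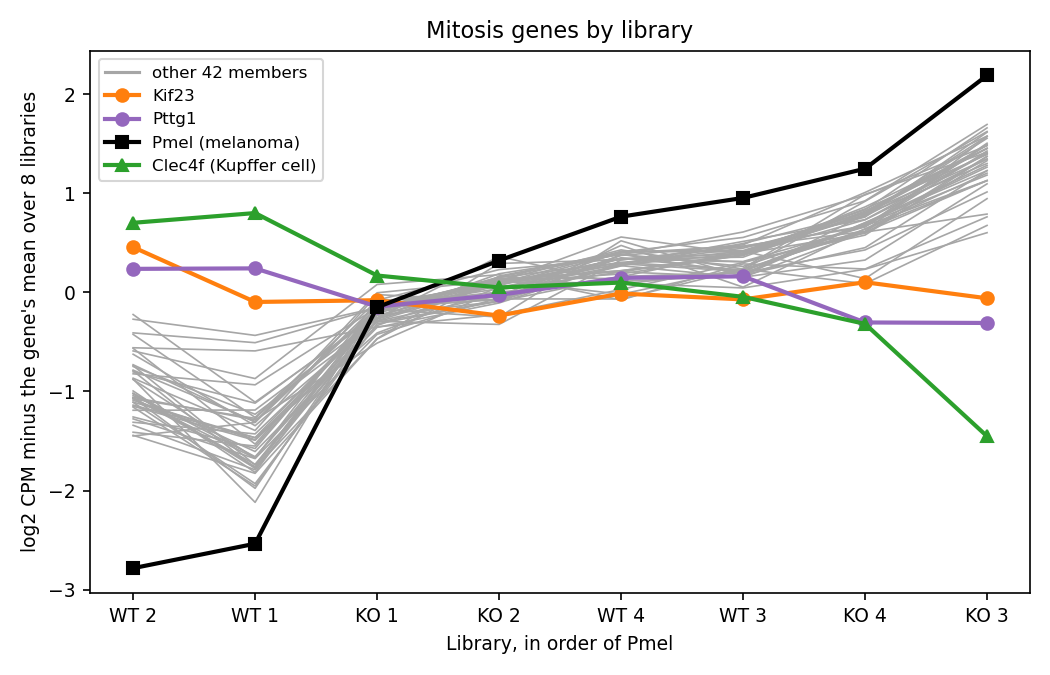
Log2 CPM of each gene minus its mean over 8 libraries (vertical axis) in the 8 libraries, ordered by Pmel. Grey lines are 42 members, which rise from WT 1 to KO 3 with Pmel (black) but less steeply, while Kif23 (orange) and Pttg1 (purple) stay near level and Clec4f (green), a Kupffer cell gene, goes from 11254 CPM in WT 1 to 2362 CPM in KO 3.

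Among the genes of chromosome structure, Top2a, the topoisomerase that untangles sister chromatids, stood at 59.4, 103, 248 and 239 CPM in libraries WT 1 to 4 and 167, 201, 475 and 286 CPM in libraries KO 1 to 4. Mki67, the surfactant of mitotic chromosomes used as a proliferation marker, stood at 77.2, 138, 212 and 207 CPM in libraries WT 1 to 4 and 175, 181, 373 and 249 CPM in libraries KO 1 to 4. Genotypes overlapped in both genes, with KO 1 and KO 2 below WT 3 and WT 4. The ratio of the pair was not constant: Mki67 counts per 100 Top2a counts were 129.8, 134, 85.6 and 86.4 in libraries WT 1 to 4 and 105, 90.3, 78.6 and 87.04 in libraries KO 1 to 4. Mki67 was thus highest relative to Top2a in WT 1 and WT 2.

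Of the cyclin group, Ccnb1, the cyclin B that activates Cdk1 at mitotic entry, stood at 10.7, 13.9, 55.6 and 50.2 CPM in libraries WT 1 to 4 and 27.3, 42.4, 122 and 71.8 CPM in libraries KO 1 to 4. Ccna2, cyclin A, stood at 16.2, 25.2, 68.1 and 63.1 CPM in libraries WT 1 to 4 and 42.02, 54.3, 136 and 87.2 CPM in libraries KO 1 to 4. Cks2, a small subunit that binds Cdk1, moved within a narrow range, at 14.9, 16.7, 23.8 and 19.3 CPM in libraries WT 1 to 4 and 18.1, 19.3, 32.3 and 21.5 CPM in libraries KO 1 to 4. The ratio of KO 3 to WT 1 was 11.5 for Ccnb1, 8.35 for Ccna2 and 2.16 for Cks2. Cdk1, the mitotic kinase, averaged 40.6 ± 17.3 CPM in WT against 70.6 ± 32.3 CPM in KO (mean ± SD, n = 4 each). Ccnb2, the other B-type cyclin, averaged 22.1 ± 14.1 CPM in WT against 40.6 ± 23.1 CPM in KO, and Cks1b, the relative of Cks2, averaged 20.4 ± 8.29 CPM in WT against 32.7 ± 13.3 CPM in KO. Foxm1, the transcription factor of G2/M genes, averaged 28.8 ± 20.1 CPM in WT against 54.2 ± 31.1 CPM in KO. All KO means lay above the WT means, with SDs large enough that the genotypes overlapped in each gene.

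Plk1, a kinase of mitotic entry and spindle assembly, stood at 7.19, 9.49, 32.1 and 29.8 CPM in libraries WT 1 to 4 and 17.1, 22.1, 68.5 and 46.2 CPM in libraries KO 1 to 4. Birc5, survivin of the chromosomal passenger complex, stood at 7.47, 14.1, 34.5 and 36.2 CPM in libraries WT 1 to 4 and 25.99, 32.7, 90.6 and 55.6 CPM in libraries KO 1 to 4. Plk4, the kinase of centriole duplication, stood at 10.5, 12.7, 23.3 and 18.1 CPM in libraries WT 1 to 4 and 20.2, 21.6, 32.4 and 22.5 CPM in libraries KO 1 to 4. WT 1 and WT 2 were lowest in all 3 genes, and Plk4 had the smallest span. Aurka, the kinase of spindle poles, averaged 15.6 ± 9.15 CPM in WT against 28.9 ± 15.4 CPM in KO, and Aurkb, the kinase partner of Birc5, 19.9 ± 10.9 CPM in WT against 34.4 ± 15.1 CPM in KO.

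For the spindle checkpoint, which holds back anaphase, the kinase Bub1 stood at 8.97, 12.2, 41.2 and 41.3 CPM in libraries WT 1 to 4 and 25.7, 33.1, 97.98 and 55.3 CPM in libraries KO 1 to 4. Bub3, which recruits Bub1 and Bub1b to kinetochores, stood at 64.3, 68.9, 94.4 and 97.4 CPM in libraries WT 1 to 4 and 81.98, 98.6, 139 and 108 CPM in libraries KO 1 to 4. Both were lowest in WT 1 and highest in KO 3, but the ratio of highest to lowest library was far smaller for Bub3. Bub1b, which inhibits Cdc20 together with Bub3, averaged 33.2 ± 14.97 CPM in WT against 61.3 ± 27.5 CPM in KO, and Mad2l1, the checkpoint inhibitor of Cdc20, 39.8 ± 23.3 CPM in WT against 74.8 ± 36.1 CPM in KO. Ttk, the kinase that starts checkpoint signalling, was scarce, at 7.69 ± 4.87 CPM in WT against 14.5 ± 8.70 CPM in KO.

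Genes of anaphase onset divided sharply. Cdc20, the activator of the anaphase-promoting complex, stood at 5.41, 9.55, 31.4 and 26.8 CPM in libraries WT 1 to 4 and 16.5, 19.4, 57.5 and 40.7 CPM in libraries KO 1 to 4. Pttg1, securin, the inhibitor of separase, stood at 61.4, 61.2, 58.1 and 57.5 CPM in libraries WT 1 to 4 and 47.03, 51.03, 41.9 and 42.1 CPM in libraries KO 1 to 4. All 4 KO libraries were below all 4 WT libraries in Pttg1, the only member whose genotypes did not overlap. No member was higher in every KO library. Genotypes did not overlap for 883 of all 15870 tested genes. Of these, 453 were lower in every KO library, which is 2.85% of all tested genes. Non-overlap was therefore no more frequent among members than among all tested genes. Espl1, separase itself, averaged 16.7 ± 9.66 CPM in WT against 28.7 ± 14.96 CPM in KO, and Ube2c, the ubiquitin-conjugating enzyme of the complex, 15.5 ± 8.69 CPM in WT against 27.8 ± 12.5 CPM in KO.

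At the centromere and kinetochore, Cenpa, the centromeric histone, stood at 28.9, 29.5, 53.6 and 44.4 CPM in libraries WT 1 to 4 and 34.2, 37.3, 75.2 and 66.3 CPM in libraries KO 1 to 4. Spc25 and Nuf2 belong to the NDC80 complex that grips microtubules. Spc25 stood at 5.77, 7.19, 22.2 and 19.99 CPM in libraries WT 1 to 4 and 15.5, 18.7, 47.1 and 30.3 CPM in libraries KO 1 to 4, and Nuf2 at 8.18, 10.5, 32.3 and 27.6 CPM in libraries WT 1 to 4 and 17.03, 23.4, 59.7 and 37.6 CPM in libraries KO 1 to 4. Cenpa started from a higher level in WT 1 and WT 2 relative to its peak than Spc25 or Nuf2 did. The complex's other subunits averaged 17.3 ± 8.12 CPM in WT against 28.7 ± 13.7 CPM in KO for Ndc80, and 7.86 ± 4.32 CPM in WT against 14.4 ± 8.04 CPM in KO for Spc24. Cenpe, a kinetochore motor, averaged 31.7 ± 16.4 CPM in WT against 46.6 ± 23.1 CPM in KO, Cenpf, a kinetochore protein that appears in G2, 24.04 ± 15.3 CPM in WT against 44.9 ± 24.2 CPM in KO, and Cenpk, an inner kinetochore subunit and the least abundant member, 6.15 ± 3.10 CPM in WT against 12.3 ± 5.36 CPM in KO.

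Among spindle motors and microtubule proteins, Tpx2, an activator of Aurka, stood at 15.7, 19.9, 57.3 and 50.1 CPM in libraries WT 1 to 4 and 34.95, 47.4, 120.5 and 80.1 CPM in libraries KO 1 to 4. Kif2c, a microtubule depolymerase, stood at 4.20, 8.31, 17.02 and 14.2 CPM in libraries WT 1 to 4 and 12.7, 15.7, 38.3 and 28.5 CPM in libraries KO 1 to 4. Hmmr, a spindle protein also known as a hyaluronan receptor, stood at 7.40, 10.95, 30.7 and 27.6 CPM in libraries WT 1 to 4 and 17.6, 20.9, 69.04 and 38.1 CPM in libraries KO 1 to 4. KO 3 was the highest library and WT 1 the lowest in all 3. Kif11, the motor that separates spindle poles, averaged 38.1 ± 19.02 CPM in WT against 61.5 ± 26.6 CPM in KO, and Kif4, a chromosome-bound motor, 12.6 ± 7.68 CPM in WT against 24.5 ± 13.3 CPM in KO. Nusap1, which binds spindle microtubules, averaged 17.9 ± 7.11 CPM in WT against 22.9 ± 9.35 CPM in KO, and Ckap2, another spindle microtubule protein, 12.9 ± 8.46 CPM in WT against 23.7 ± 12.9 CPM in KO.

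Of the genes of the midzone and cytokinesis, Racgap1, the GAP subunit of centralspindlin, stood at 19.2, 21.2, 73.9 and 68.3 CPM in libraries WT 1 to 4 and 49.6, 61.03, 168 and 97.1 CPM in libraries KO 1 to 4. Kif23, the motor subunit of the same complex, stood at 75.4, 111, 76.7 and 79.9 CPM in libraries WT 1 to 4 and 76.3, 68.5, 77.3 and 86.5 CPM in libraries KO 1 to 4. The partners thus differed: Racgap1 was low in WT 1 and WT 2 and peaked in KO 3, whereas Kif23 stayed between 68.5 and 86.5 CPM except in WT 2. Prc1, which bundles midzone microtubules, averaged 25.1 ± 11.7 CPM in WT against 42.5 ± 17.6 CPM in KO, and Kif20a, a midzone motor, 18.7 ± 11.5 CPM in WT against 35.02 ± 16.7 CPM in KO. Anln, a scaffold of the contractile ring, averaged 30.4 ± 18.9 CPM in WT against 57.3 ± 27.03 CPM in KO, and Ect2, the RhoA exchange factor of the cleavage furrow, 20.2 ± 12.2 CPM in WT against 37.9 ± 17.8 CPM in KO.

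Each member was then set against Pmel in 1 model with genotype, fitted by edgeR's quasi-likelihood test across all 15870 genes with Benjamini-Hochberg adjustment. The slope is the change in log2 expression per unit of log2 CPM of Pmel, so 0 is no relation and 1 is a level in proportion to Pmel. Expression rose with Pmel for 42 of 44 members, where 20.9% of all tested genes rose. On Dct 42 of 44 rose, where 20.4% of all genes did. These calls hold without the pairing of libraries by number. With the replicate block in the model no member passed as rising, on Pmel or on Dct, where 1.01% of all genes did on Pmel. That model has fewer residual degrees of freedom, and its slope on Pmel was above 0 for 41 members, with a median of 0.23. Without the block the median slope of the 44 was 0.49, against 0.00 over all tested genes. Among the 42, slopes ran from 0.17 ± 0.05 (SE) for Cks2, at an edgeR adjusted p of 0.0243, to 0.66 ± 0.06 for Ccnb1, at 3.56e-05. The exceptions were Kif23, with a slope of -0.05 ± 0.05 and an edgeR adjusted p of 0.437, and Pttg1, with -0.04 ± 0.03 and 0.309.

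**Figure D2:**
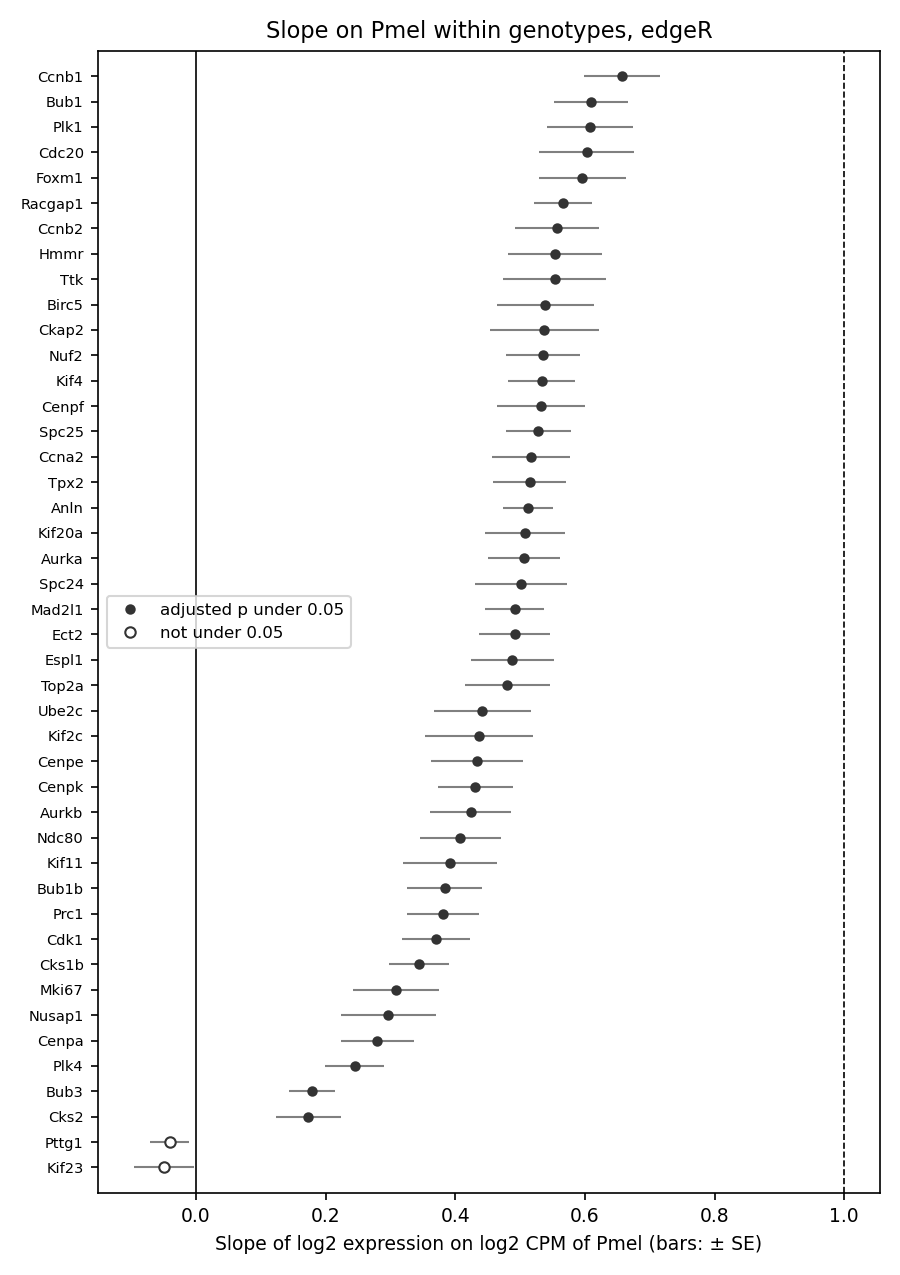
Slope of log2 expression on log2 CPM of Pmel for the 44 members (horizontal axis; points with SE bars), from the edgeR model with genotype over 8 libraries and no replicate block, with which none passed. Filled points passed an adjusted p of 0.05, open points did not, and the dashed line at 1 is a level in proportion to Pmel; 42 members lie between 0.17 and 0.66, Kif23 at -0.05 and Pttg1 at -0.04.

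The steepest were, after Ccnb1, Bub1 at 0.61 ± 0.06, Plk1 at 0.61 ± 0.07, Cdc20 at 0.60 ± 0.07 and Foxm1 at 0.60 ± 0.07. The shallowest after Cks2 were Bub3 at 0.18 ± 0.04, Plk4 at 0.24 ± 0.04, Cenpa at 0.28 ± 0.06, Nusap1 at 0.30 ± 0.07 and Mki67 at 0.31 ± 0.07. By role, the median slope was 0.39 for the pair of chromosome structure genes, 0.52 for the cyclin group, 0.51 for mitotic kinases and 0.49 for the checkpoint. It was 0.47 for kinetochore genes, 0.51 for spindle motors, 0.50 for the midzone and 0.46 for anaphase onset, where Pttg1 is included. Slopes overlapped between windows with and without the promoter letters shown above. The 24 genes with both TTTGAA and CCAAT ran from -0.05 to 0.61 with a median of 0.49, and the 6 with neither ran from -0.04 to 0.54 with a median of 0.39.

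WT 1 and WT 2 held so little Pmel that they lay apart, by 2.38 of a total range of 4.97 in log2 CPM. Without both, 42 of 44 members still rose by edgeR, where 21.2% of genes did, and the median slope was 0.64. Over the remaining 6 libraries the Pearson correlation of log2 CPM with Pmel had a median of 0.97 over the members, from -0.42 for Pttg1 to 0.998 for Nuf2. It was positive and past an adjusted p of 0.05, by exact 2-sided permutation over 720 pairings, for 40 of 44 members, where 14.8% of genes were. The 4 others were Aurkb at r = 0.90, Plk4 at 0.80, Kif23 at 0.39 and Pttg1 at -0.42. With Dct 38 members passed, where 14.3% of genes were positive and past it. Spearman's rho equalled 1 for 20 members, whose 6 libraries came in exactly the order of Pmel, and the same 20 passed by rank, where 5.2% of genes did. No lower positive rho could pass: the next, 0.943, has a permutation adjusted p of 0.0753. The smallest permutation p these 6 libraries allow is 0.00139 for Pearson's r and 0.00278 for Spearman's rho. No correlation is given over all 8 libraries, since 2 of them form a separate cluster.

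**Figure D3:**
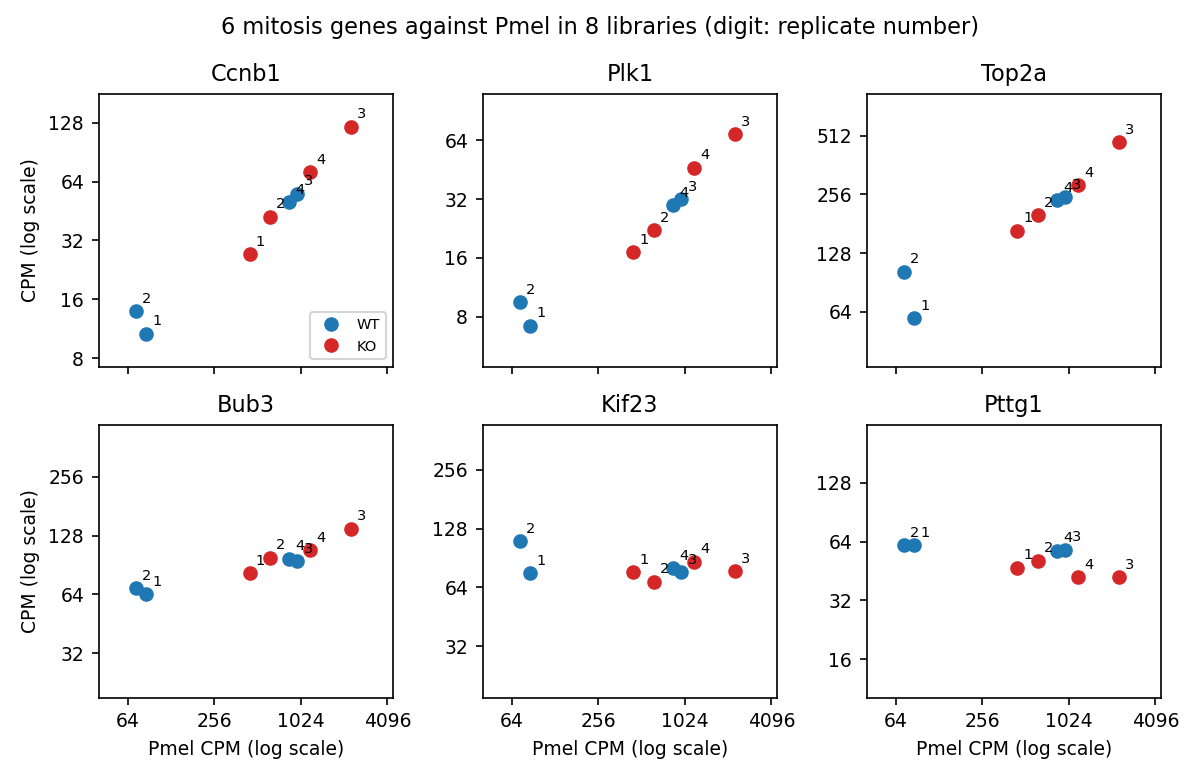
CPM of 6 members against CPM of Pmel in 8 libraries, both on log scales with equal vertical span; blue is WT, red is KO, and digits are replicate numbers. Ccnb1, Plk1 and Top2a climb steeply over the 6 libraries above 400 CPM of Pmel, Bub3 climbs less, and Kif23 and Pttg1 do not climb.

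All 44 members had a slope below 1 by edgeR, but so did 95.8% of all tested genes, so this is no property of mitosis genes. The other melanoma markers, Dct, Tyrp1, Tyr, Mlana, Sox10, Slc45a2 and Slc24a5, had slopes from 0.93 to 1.04, Gpr143 had 1.28 and Mitf, which macrophages also express, 0.45. Within genotypes, 41 members rose over the 4 WT libraries by edgeR, all but Cks2, Kif23 and Pttg1, where 17.6% of all tested genes rose. Over the 4 KO libraries 42 rose, where 24.1% did, and the median slopes were 0.44 in WT and 0.67 in KO. The slope was steeper in KO by estimate for 43 members, where it was for 7865 of all 15870 tested genes. It differed by an edgeR interaction test for 6, where 5.18% of genes were steeper in KO: Plk1, Cenpa, Spc24, Tpx2, Hmmr and Racgap1. On Dct 9 members were steeper in KO, where 6.93% of genes were. Pmel stood at 85.98 and 72.5 CPM in WT 1 and WT 2 and at 965 and 847 CPM in WT 3 and WT 4. The WT slope is therefore mainly a contrast of WT 1 and WT 2 with WT 3 and WT 4. No KO library held as little Pmel as WT 1 and WT 2, the lowest being KO 1 with 449 CPM, so the genotypes' slopes cover different ranges.

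A slope below 1 means that members were high relative to Pmel where Pmel was low. Per 100 Pmel counts in the same library, Top2a had 69.1, 142, 25.7 and 28.3 in libraries WT 1 to 4 and 37.1, 32.2, 20.9 and 24.2 in libraries KO 1 to 4. Mki67 had 89.7, 190.3, 21.98 and 24.4 in libraries WT 1 to 4 and 38.9, 29.1, 16.4 and 21.02 in libraries KO 1 to 4 per 100 Pmel counts, and Ccnb1 had 12.4, 19.2, 5.76 and 5.93 in libraries WT 1 to 4 and 6.08, 6.81, 5.39 and 6.06 in libraries KO 1 to 4. The ratio was highest in WT 2 and next highest in WT 1 for these genes. Over all 44 members the median was 10.3, 18.8, 3.41 and 3.96 per 100 Pmel counts in libraries WT 1 to 4 and 5.19, 4.35, 2.96 and 3.67 in libraries KO 1 to 4. For the 19 members chosen by rule, exact 2-sided permutation of these ratios between genotypes gave p from 0.171 to 0.429, where 0.0286 is the smallest possible.

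**Figure D4:**
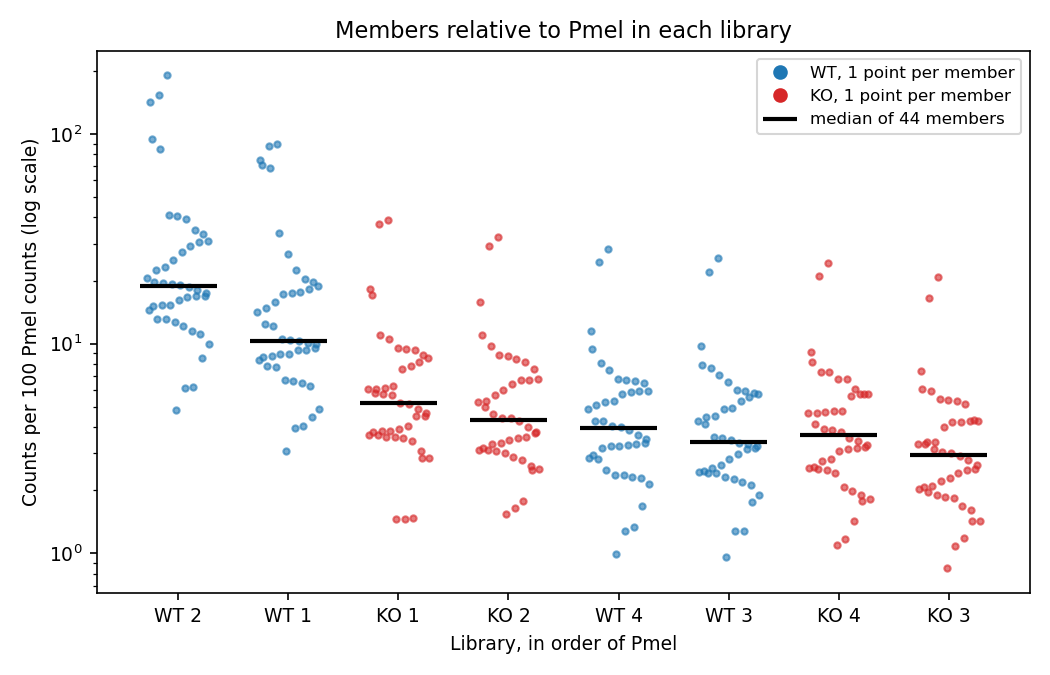
Counts of each of the 44 members per 100 Pmel counts in the same library (log axis), with libraries ordered by Pmel; points are members and bars are medians. The medians are 18.8 in WT 2 and 10.3 in WT 1 and lie between 2.96 and 5.19 in the other 6 libraries.

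WT 1 and WT 2 had nearly equal Pmel, at 85.98 and 72.5 CPM, yet differed in most of the 44 members. In WT 2, 41 of 44 members were higher than in WT 1, all but Pttg1, Cenpk and Anln, and 17 were at least 1.5 times higher. The median ratio was 1.41, from 0.91 for Anln to 2.37 for Ckap2. Kif11, Kif2c and Ube2c were 1.954, 1.979 and 2.003 times higher in WT 2. These ratios compare 2 libraries, and have no replicate check and no share over all tested genes beside them. Summed over genes, the ratio of WT 2 to WT 1 was 1.40 for the members. It was smaller for the other mitosis genes: 1.16 for condensin, 1.10 for kinetochore, 1.23 for spindle and cytokinesis and 1.22 for mitotic entry genes. Summed T cell markers were 1.80 times higher in WT 2, and dendritic cell markers 1.32 times. The ratio of WT 2 to WT 1 was 1.31 for stellate cell and fibroblast, 1.28 for monocyte, 1.28 for NK cell and 1.18 for neutrophil markers. It was 0.997 for B cell, 0.93 for endothelial, 0.88 for melanoma, 0.77 for hepatocyte and 0.63 for erythroid markers. Summed Kupffer cell markers in WT 2 were 0.98 of those in WT 1. Whether other cells account for the difference was not tested.

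KO was compared with WT by the same edgeR test without Pmel. None of the 44 members passed an adjusted p of 0.05, where 0.0063% of all tested genes did. An unadjusted edgeR p under 0.05 was found for 2 members, Kif2c higher and Pttg1 lower in KO. Of all 15870 tested genes, 671 had such a p higher in KO and 723 lower, so it was no more frequent among members. DESeq2 called 1 member, Pttg1, where it called 0.391% of genes, and limma on log2 FPKM called none. The KO mean was above the WT mean for 42 members, and the median log2 fold change was 0.88, against -0.003 over all tested genes. The largest was 1.15 ± 0.56 (SE) for Birc5, followed by 1.12 ± 0.48 for Kif2c, 1.04 ± 0.55 for Racgap1 and 1.03 ± 0.60 for Bub1. Kif23 had -0.15 ± 0.14, and edgeR adjusted p-values of the members ran from 0.492 to 0.607. The median rested on few libraries: it was 0.48 without KO 3, 0.26 without WT 1 and WT 2, and -0.079 without all 3.

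With the replicate number as a replicate block in the edgeR model, 40 of 44 members rose in KO, where 8.98% of all genes rose, and 1 fell, where 5.01% fell. The blocked log2 fold change was 1.23 ± 0.18 for Birc5 and 1.14 ± 0.17 for Ccnb1, both at an edgeR adjusted p of 0.0254. The member that fell was Pttg1, at -0.39 ± 0.08 with an adjusted p of 0.0299. Cks2, Nusap1 and Kif23 did not pass. Melanoma RNA moved with this contrast: KO exceeded WT in Pmel in each of the 4 numbered pairs, and 9 of 10 melanoma markers passed the blocked test. With Pmel and the block together no member passed, neither for genotype nor for the slope on Pmel. The blocked slope on Pmel was above 0 for 41 members, with a median of 0.23, 9 unadjusted p under 0.05 and a smallest edgeR adjusted p of 0.238. Of all 15870 tested genes, 8982 had a blocked slope above 0 and 921 an unadjusted edgeR p under 0.05.

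With log2 CPM of Pmel in the model and no block, no member differed between KO and WT by edgeR, where 0.0063% of genes did. Only 1 member, Pttg1, had an unadjusted edgeR p under 0.05, lower in KO. Of all 15870 tested genes, 399 had such a p higher in KO and 722 lower, so it was no more frequent among members. The median log2 fold change of the 44 was 0.05, with 30 values above 0 and 14 below, where 8319 of 15870 genes were above 0. Birc5 had 0.26 ± 0.25 at equal Pmel, Ccnb1 -0.01 ± 0.19, Plk1 -0.02 ± 0.22 and Kif2c 0.37 ± 0.28, the highest. Dct or the mean of 10 melanoma genes in place of Pmel also gave 0 members. Pttg1 changed little with Pmel in the model: its log2 fold change was -0.39 ± 0.09 without Pmel, at an edgeR p of 0.00301 before and 0.492 after adjustment, and -0.32 ± 0.10 with Pmel, at an adjusted p of 0.486. It ran from -0.46 to -0.35 over fits leaving out 1 library each.

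**Figure D5:**
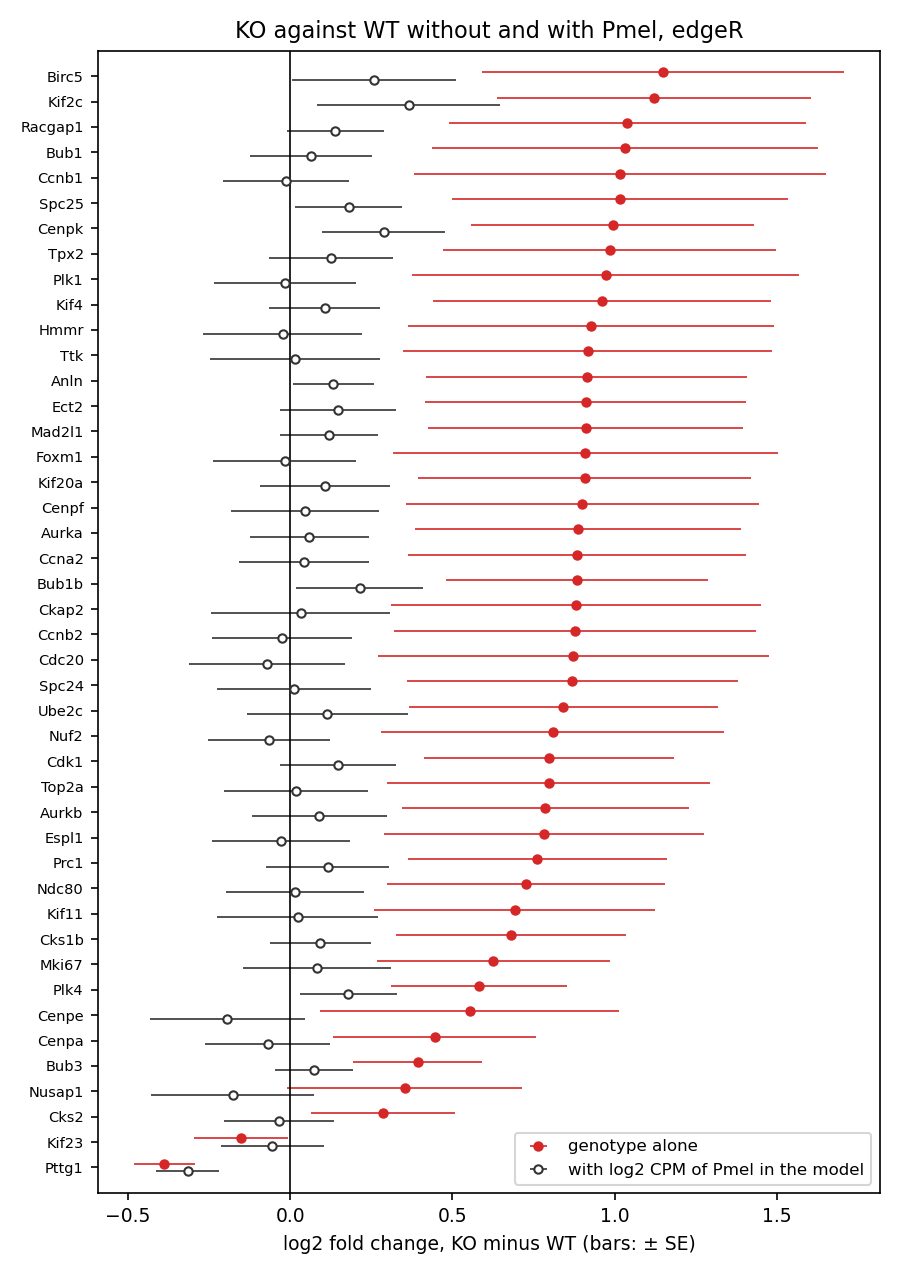
Log2 fold change of KO minus WT for the 44 members (points with SE bars, edgeR), from genotype alone (filled red) and with log2 CPM of Pmel in the model (open). With Pmel in the model the median goes from 0.88 to 0.05, while Pttg1 goes from -0.39 to -0.32.

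The other mitosis genes, on lists chosen by function, behaved alike in part. For comparison, 20.9% of all tested genes rose with Pmel. Of condensin genes, 5 of 8 rose with Pmel by edgeR, the steepest being Ncapd2 at 0.52 ± 0.07, with Smc2 at 0.33 ± 0.04 and Ncaph at 0.36 ± 0.05. Of other kinetochore genes, 18 of 26 rose, among them Cdca8 at 0.47 ± 0.04, the passenger partner of Aurkb, Dsn1 at 0.53 ± 0.06 and Ska2 at 0.48 ± 0.05. Of other spindle and cytokinesis genes, 16 of 18 rose, with Gtse1 at 0.61 ± 0.06, Spag5 at 0.59 ± 0.06 and Kif20b at 0.33 ± 0.03. Of genes of mitotic entry, 11 of 12 tested rose, with Cdca3 at 0.67 ± 0.05, Pbk at 0.59 ± 0.05 and Nek2 at 0.63 ± 0.06. Median slopes of these 4 lists were 0.22, 0.40, 0.41 and 0.43, against 0.00 over all genes. Ccnb3, a meiotic cyclin, had no count in any library, which allows up to 0.197 CPM for counting error only.

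The upstream and downstream machinery was mixed. Over all tested genes 20.9% rose with Pmel and 14.4% fell. Of 16 anaphase-promoting complex genes, 7 rose with Pmel, with Ube2s at 0.34 ± 0.05, Cdc27 at 0.17 ± 0.04 and Anapc1 at 0.17 ± 0.04, and 1 fell, Anapc15 at -0.28 ± 0.08. Of 9 tested Cdk inhibitors and pocket proteins, the inhibitors Cdkn2c and Cdkn2d rose, at 0.35 ± 0.07 and 0.25 ± 0.05, and Cdkn1b and Rbl2 fell, at -0.10 ± 0.03 and -0.13 ± 0.04, shares of 9 that are near those over all genes. Of 15 E2F, B-Myb and MuvB genes, 5 rose and none fell: E2f8 at 0.44 ± 0.07, E2f7 at 0.42 ± 0.08, Mybl1 at 0.41 ± 0.10, Mybl2 at 0.37 ± 0.09 and Lin9 at 0.18 ± 0.05. E2f7 and E2f8 are repressors of the E2F family, and Mybl2 is the B-Myb that acts at CHR promoters.

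Markers of other cell types moved with Pmel too, and their part in the mitosis result was not tested. Summed melanoma markers ranged over 495 to 5455 CPM in WT against 2493 to 12245 CPM in KO, and Kupffer cell markers over 22213 to 40514 CPM in WT against 8852 to 27461 CPM in KO. With Pmel, 9 of 14 Kupffer cell markers and 8 of 8 T cell markers fell by edgeR, where 14.4% of all tested genes fell. So did 3 of 5 tested endothelial, 2 of 5 NK cell and 1 of 5 B cell markers. Rising were 8 of 8 hepatocyte markers, 1 of 4 tested erythroid and 1 of 6 stellate cell and fibroblast markers, where 20.9% of all tested genes rose. No neutrophil, monocyte or dendritic cell marker passed. T cell markers summed to 65.2 to 197 CPM in WT against 46.02 to 168 CPM in KO and NK cell markers to 16.1 to 35.8 CPM in WT against 10.2 to 32.1 CPM in KO. B cell markers summed to 18.1 to 45.4 CPM over the 8 libraries. Neutrophil markers summed to 209 to 264 CPM in WT against 133 to 301 CPM in KO, monocyte markers to 178 to 241 CPM in WT against 203 to 262 CPM in KO and dendritic cell markers to 197 to 316 CPM in WT against 175 to 302 CPM in KO. Hepatocyte markers summed to 405 to 1830 CPM in WT against 167 to 719 CPM in KO, endothelial markers to 355 to 646 CPM in WT against 159 to 484 CPM in KO, stellate cell and fibroblast markers to 68.4 to 182 CPM in WT against 31.4 to 47.7 CPM in KO, and erythroid markers to 6.96 to 31.3 CPM in WT against 4.62 to 10.7 CPM in KO. No marker on these lists was at 0 in all 8 libraries. For 7 members an opposite-strand gene overlaps and holds at least 10% as many counts: Ccna2 with Exosc9, Cdc20 with Elovl1, Cenpk with Ppwd1, Kif4 with Pdzd11, Nusap1 with Oip5, Kif20a with Cdc23 and Prc1 with Rccd1. Without a stated strand setting their reads cannot be told apart with certainty.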

How the data were processed

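RNA was measured in 8 libraries, 4 WT and 4 VSIG4 KO. The deposited table holds raw counts per gene and, beside them, the authors' FPKM values, per the file headers. HTSeq 0.6.1 and mm10 are named in the submitters' processing notes. No source used here names the aligner, the strand setting or the annotation. The deposited FPKM equalled counts over exonic size and column total within 0.015 for 100% of values. Only 1435 of 52073 shared identifiers had their GENCODE M21 position, so deposited coordinates were not used for sequence, and promoters were read from a RefSeq table on GRCm38.p6.

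Genes were kept by filterByExpr, scaled by TMM and tested 2-sided with edgeR 4.0.16 (R 4.3.3), with Benjamini-Hochberg adjustment over 15870 genes and a threshold of 0.05. Alternatives used DESeq2 1.42.0 and limma 3.58.1. SEs came from the coefficient and the F statistic, and 2 was the prior count of log2 CPM. The spread between libraries, as a biological coefficient of variation, was 33.3%. Depth was 15264043 to 19513844 counts, and a count of 0 allows 3 counts, or 0.154 to 0.197 CPM. The members, gene lists and marker lists were chosen with earlier results of these data known. Given library by library were, in each role, the member with the highest mean FPKM and the one with the largest fold change, and the 3 highest and 3 lowest correlations with Pmel, 19 members in all. Mki67 was added, and list genes were the 3 with the smallest p; Anapc15, Cdkn1b, Rbl2, Mybl2 and Lin9 were also named after their values were seen. The planned correlation over 8 libraries was replaced, after the data were seen, by that over 6. The test of the slope against 1 was also added then.

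WT and KO libraries carry the same numbers, 1 to 4. Deviations from genotype means correlated between same-numbered libraries at 0.561, 0.544, 0.660 and 0.290. Libraries were treated as paired by number only in the fits with the replicate block. The main fits have no replicate term. No label states a pairing by number, and blocked results hold only if that pairing is right. In data simulated from the means and spread of the 15870 genes, the KO against WT test recovered 45.0% of genes changed by 1 log2 unit and 91.2% of those changed by 2, and 5.04% of its calls were false. The Pmel slope test recovered 75% of slopes of 0.5, with 6.04% false calls. The changed genes were drawn at random from the more abundant tested genes and varied independently, so these shares are not those of the members.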

Additional observations from a re-analysis of the deposited data

Results flagged for a closer look

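Kif23 had 1 WT library apart from the rest: in log2 CPM the gap between WT 2 and the next WT library was 0.846 of the WT range, above Dixon's critical value for 4 samples. Chance alone marks about 1 in 20 such groups. WT 2 stood at 110.6 CPM and the other WT libraries at 75.4 to 79.9 CPM.

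The Pmel slope was steeper in KO than in WT for 6 members by edgeR's interaction test. The difference in slope, KO minus WT, was 0.36 for Plk1, 0.32 for Cenpa, 0.39 for Spc24, 0.31 for Tpx2, 0.40 for Hmmr and 0.24 for Racgap1, at edgeR adjusted p-values from 0.0325 to 0.0474. With Dct in place of Pmel, 9 members passed, where 6.93% of all tested genes did. The WT slopes include WT 1 and WT 2, whose Pmel levels no KO library reached.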

How the results depend on the processing

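The number of members called between KO and WT was 0 with edgeR and stayed at 0 in every fit leaving out 1 library, without TMM factors, without the filter, and with limma at either pseudocount. It was 1 with DESeq2 and 41 with the replicate block, a model that has fewer residual degrees of freedom but holds the shared numbers fixed. The 42 members called as rising with Pmel or Dct became 0 and 0 with the replicate block, again with fewer residual degrees of freedom. The calls ranged from 41 to 42 for Pmel and 40 to 42 for Dct when 1 library was left out. They were 42 with DESeq2, without the filter, without genotype and with library totals. Cks2 was the member lost for Pmel. The median log2 fold change of 0.88 ran from 0.48 (without KO 3) to 1.15 (without WT 3) leaving out 1 library each. With KO 3, WT 1 and WT 2 left out it was -0.079, with 36 of 44 members below 0. Of the 19 members given library by library, the fold change turned negative for 11: Top2a (-0.16), Cks2 (-0.13), Ccnb1 (-0.16), Plk1 (-0.12), Bub1 (-0.11), Cdc20 (-0.19), Cenpa (-0.093), Racgap1 (-0.038), Nuf2 (-0.20), Hmmr (-0.19) and Ccna2 (-0.10); the cause was not tested. The count at equal Pmel was 0 under each alternative run. Correlation without the 2 libraries farthest from the median was not run, since 4 libraries would be left. With 4 libraries a genotype and a spread of 33.3%, the simulated recovery of a 1 log2 unit change was under 50%. That was for genes drawn at random that varied independently, not for the members. A call of 0 therefore does not show that levels were equal.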
